A study of Homo sapiens with 3 samples.

Results

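The IL-6 family of cytokines, their receptor subunits and the signalling genes SOCS3 and STAT3 were examined in 3 populations of 1205Lu, an established human melanoma line obtained from a lung metastasis of a WM793 xenograft in a mouse. The family comprised 10 of the 17084 genes that the array names with a RefSeq NM_ accession, namely IL6, IL11, LIF, OSM, IL6R, IL6ST, LIFR, OSMR, SOCS3 and STAT3. Every non-control probe that the scanner files name with one of these symbols was taken, which gave 20 of 41000 probes and 38 of 43376 spots. The original monolayer (OM) had grown for 14 days in RPMI-1640 medium with 10% FCS. The melanoma bodies (MB) are adherent 3D aggregates grown for 14 days in hESC medium, that is DMEM F-12 with 20% KO serum replacement, and collected by detaching them. The new monolayer (NM) came from bodies kept for 14 days in hESC medium and then for 10 days in RPMI-1640 with 10% FCS, and the bodies that remained were taken out before RNA was prepared. Each population was measured on 1 single-colour (Cy3) Agilent array, with the 3 arrays on 1 slide. Without replicate cultures no test across samples was possible, and growth form, medium and the individual culture cannot be told apart.

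Cytokines of this family signal through receptor complexes that share the subunit gp130, the product of IL6ST. Binding activates JAK kinases, which phosphorylate STAT3, and STAT3 then enters the nucleus and switches on target genes that include SOCS3, an inhibitor of the same receptors. IL-6 binds IL6R, LIF binds LIFR and oncostatin M binds OSMR or LIFR, each in a complex with gp130. IL-11 binds a receptor subunit of its own and also signals through gp130. Melanoma cells can make IL-6 and LIF themselves, and IL-6 is widely known as an inducer of acute-phase genes.

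The transcripts of the 3 measured ligands were lowest in MB. Of 8 measured probes for the receptor subunits, 7 were higher in MB than in NM, as were 54.3% of all measured probes. Several of these probes read the same gene. By the brightest probe of each gene, 3 of the 4 subunits were higher in MB than in NM. Against OM, 2 were higher in MB and 2 were lower. IL6 was 8.65-fold lower in MB than in OM and 14.6-fold lower than in NM, which made it the only one of the 10 genes past 5-fold in any comparison. Of all genes tested, 0.619% were at least 5-fold lower in MB than in OM and 1.37% were so against NM. LIF was 2.30-fold lower in MB than in OM, where 3.25% of all genes were at least 2-fold lower. IL6R was 2.06-fold higher in MB than in NM, where 9.77% of all genes were at least 2-fold higher. SOCS3 and STAT3 stayed within 1.46-fold in all 3 comparisons by their brightest probes. The readings are signals in arbitrary units (a.u.) as the scanner software gave them, and a fold is the ratio after scaling of the arrays to the same mean signal of 3 housekeeping genes. Since the material was bulk RNA, fewer expressing cells and less RNA per cell cannot be told apart.

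The promoters of IL6 and IL11 are shown because both ligands had their lowest signal in MB. The sequences are from RefSeq on GRCh38.p14, cover the 250 bases before the annotated start and are written 5′ to 3′ on the gene's strand. The IL6 stretch lies at chr7:22726950-22727199 on the plus strand, and that of IL11 at chr19:55370464-55370713 on the minus strand. Capitals mark the letters that matched one of 5 searched motifs.
IL6 promoter: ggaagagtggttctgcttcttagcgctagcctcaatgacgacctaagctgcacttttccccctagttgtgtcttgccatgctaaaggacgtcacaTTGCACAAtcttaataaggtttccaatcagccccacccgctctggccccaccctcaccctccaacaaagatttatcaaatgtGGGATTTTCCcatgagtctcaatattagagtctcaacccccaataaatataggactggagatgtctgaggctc
IL11 promoter: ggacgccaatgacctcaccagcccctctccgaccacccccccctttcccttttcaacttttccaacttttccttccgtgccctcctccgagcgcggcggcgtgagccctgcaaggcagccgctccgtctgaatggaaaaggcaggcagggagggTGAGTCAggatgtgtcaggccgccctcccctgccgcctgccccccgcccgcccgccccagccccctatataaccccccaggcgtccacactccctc
The motifs were GGG followed by any 2 bases and TTTCC for NF-kB, TGANTCA for AP-1, TTCNNNGAA for STAT, TTGCNNAA for C/EBP and TGACGTCA for CRE, searched on both strands of windows that also held the first 50 bases after the start. In IL6 the NF-kB letters GGGATTTTCC began 73 bases before the start and the C/EBP letters TTGCACAA began 155 bases before it. In IL11 the AP-1 letters TGAGTCA began 96 bases before the start. Of all 35116 windows of this length, 1.91% held the NF-kB motif, 7.71% the AP-1 motif, 7.66% the STAT motif, 10.5% the C/EBP motif and 1.85% the CRE motif. The table held 11 windows for 8 of the 10 genes, of which 6 windows matched at least 1 motif. The other windows with a match belonged to IL6R, OSMR and LIFR. LIF and OSM had no window. A match of letters is a description and does not show that a factor binds there.

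The ligands come first. IL6, the cytokine that names the family, was read by 1 probe printed in 10 spots (hg17, chr7:22544447-22544506, plus strand). It gave 7223 ± 256 a.u. in OM, 817 ± 27.2 a.u. in MB and 10730 ± 365 a.u. in NM (SD over 10 spots). The spots ran from 6850 to 7575 a.u. in OM, from 782 to 875 a.u. in MB and from 10277 to 11299 a.u. in NM. MB was lowest and NM highest, and the spots of the 3 arrays did not overlap, although these spots share 1 RNA sample per array. The used STAT3 spots did not overlap before scaling either, although scaled STAT3 differed only 1.19-fold between MB and OM. How many other probes printed in 10 spots separate in this way was not counted. On the log2 scale IL6 differed by -3.11 between MB and OM, by -3.87 between MB and NM and by 0.76 between NM and OM. The standard error from the spots was 0.02 in each comparison, and the error that the scanner software assigns to the ratio was 0.20. IL6 was thus lower in MB by far more than either error, and its 1.69-fold higher signal in NM than in OM also exceeded 2 software errors. Among 13734 genes tested between MB and OM, 3.25% were at least 2-fold lower in MB, and among 13619 tested between MB and NM this share was 8.1%.

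**Figure D1:**
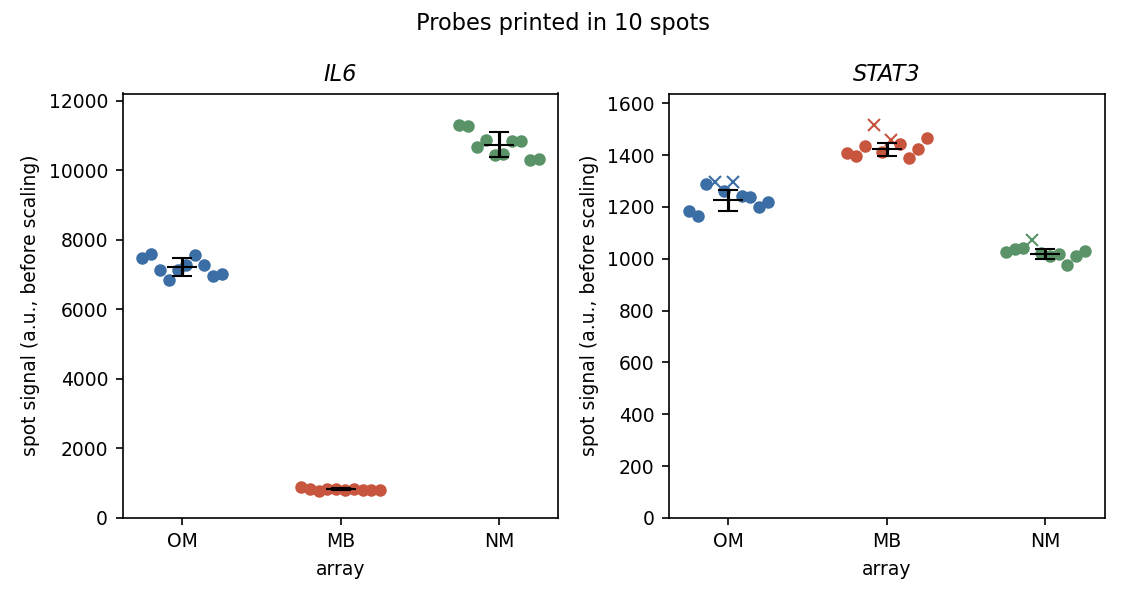
Signal in a.u. of each of the 10 spots of the IL6 probe (left) and the STAT3 probe (right) on the OM, MB and NM arrays, before scaling, with crosses for spots marked as outliers and black bars for the mean ± SD of the other spots. The IL6 spots in MB lie between 782 and 875 a.u., all below those of both monolayers. The used STAT3 spots of the 3 arrays do not overlap either. They lie at 1166 to 1286 a.u. in OM, 1390 to 1468 a.u. in MB and 975 to 1042 a.u. in NM.

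LIF, the cytokine that binds LIFR, was read by 2 probes lying 2888 bases apart. The brighter LIF probe gave 71378 a.u. in OM, 30364 a.u. in MB and 51893 a.u. in NM. The dimmer LIF probe gave 388 a.u. in OM, 136 a.u. in MB and 231 a.u. in NM. Both probes placed MB lowest and OM highest. The log2 difference between MB and OM was -1.20 ± 0.20 for the brighter probe and -1.48 ± 0.21 for the dimmer one (software error). Between MB and NM it was -0.93 and -0.91, so LIF stayed just inside 2-fold there. NM and OM differed by -0.27 ± 0.20 for the brighter probe, within 2 errors, and by -0.56 ± 0.21 for the dimmer one. The dimmer probe is printed because its agreement with the brighter one bears on the LIF result, at hg17 chr22:28964215-28964274 on the minus strand.
LIF second probe: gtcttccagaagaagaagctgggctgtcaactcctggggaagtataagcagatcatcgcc

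IL11, which acts on blood cell precursors and stroma, was read by 1 spot (hg17, chr19:60568771-60568830, minus strand). It gave 1992 a.u. in OM, 1223 a.u. in MB and 2086 a.u. in NM. MB was again lowest, by -0.67 ± 0.20 on the log2 scale against OM and by -0.93 ± 0.20 against NM, and neither passed 2-fold. NM and OM differed by 0.26 ± 0.20, which is within 2 errors. OSM, which encodes oncostatin M, gave 16.0 a.u. in OM, 16.7 a.u. in MB and 11.8 a.u. in NM. None of these signals was well above background, so OSM had no fold and is the 1 member that was not tested. All 4 ligand probes that were measured were lower in MB than in either monolayer, and 3 of them were past 2-fold against OM, where 3.22% of all probes were at least 2-fold lower. Both LIF probes are among these and read the same gene. By gene, IL6 and LIF were past 2-fold among the 3 measured ligands.

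**Figure D2:**
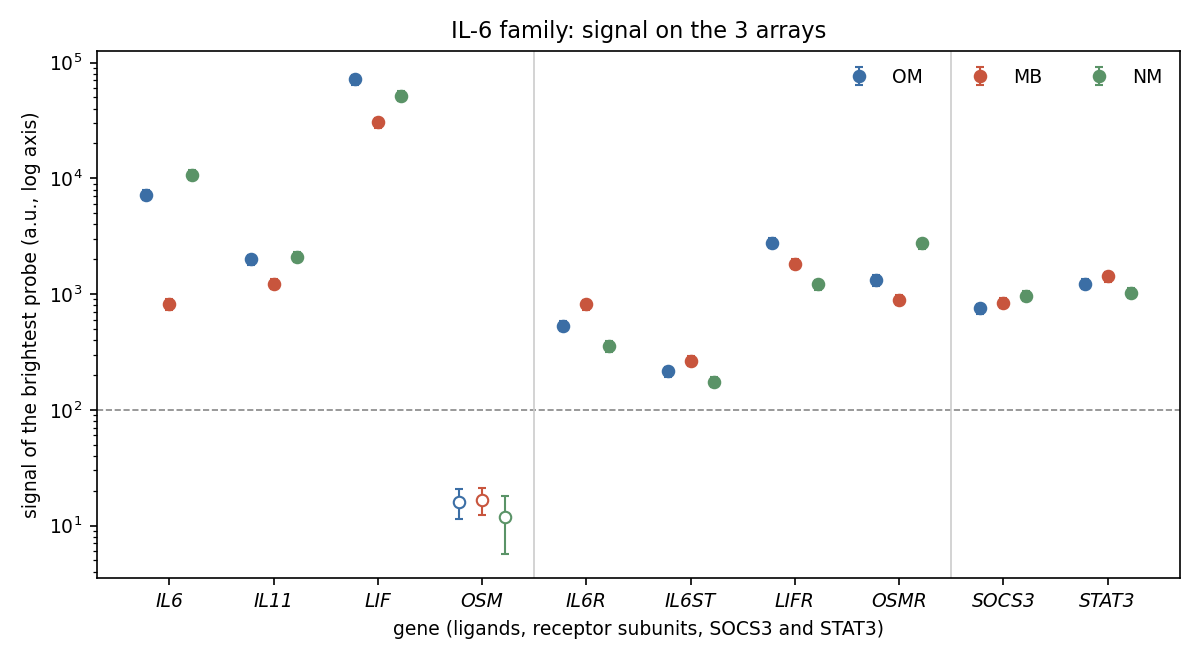
Signal in a.u. (log axis) of the brightest probe of each gene on the OM, MB and NM arrays, before scaling, with the software error as bars, open symbols for signals not well above background and a dashed line at 100 a.u. IL6 lies at 817 a.u. in MB, at 7223 a.u. in OM and at 10730 a.u. in NM, while OSM is open on every array.

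Among the receptor subunits, IL6R encodes the subunit that binds IL-6. It was read by 1 spot (hg17, chr1:151251989-151252048, plus strand) with 528 a.u. in OM, 813 a.u. in MB and 354 a.u. in NM. IL6R was highest in MB, the opposite order to IL6. On the log2 scale MB exceeded OM by 0.66 ± 0.20 and NM by 1.04 ± 0.21, while that of NM over OM, -0.39 ± 0.21, was within 2 errors. Its 2-fold call against NM was lost with 3 of 7 other scalings. IL6ST, which encodes the shared subunit gp130, gave 214 a.u. in OM, 264 a.u. in MB and 175 a.u. in NM (hg17, chr5:55272485-55272544, minus strand). Its neighbours in the order MB, OM and NM did not differ by more than 2 errors, and MB over NM was 0.44 ± 0.21. With the geometric mean over the IL6ST probes, which takes in a probe at background, MB over NM became -0.15 and NM over OM 0.27. A second IL6ST probe, named by the accession U58146, stayed at background on the 3 arrays.

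The 3 probes of LIFR, the LIF receptor, did not give the same order. The brightest LIFR probe gave 2761 a.u. in OM, 1812 a.u. in MB and 1214 a.u. in NM. The next LIFR probe gave 969 a.u. in OM, 1260 a.u. in MB and 568 a.u. in NM, and the dimmest gave 158 a.u. in OM, 202 a.u. in MB and 87.2 a.u. in NM. NM was lowest by all 3 probes, with log2 differences to OM of -0.997, -0.58 and -0.67, each over 2 errors. MB over OM was -0.58 by the brightest probe but 0.41 and 0.39 by the others, so LIFR has no settled direction between MB and OM. Against NM, MB was higher by all 3 probes, with 0.42, 0.99 and 1.06 on the log2 scale. The brightest LIFR probe, which stands apart, lies at hg17 chr5:38517876-38517935 on the minus strand.
LIFR brightest probe: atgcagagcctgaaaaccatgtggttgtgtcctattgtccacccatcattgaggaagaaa

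OSMR, the oncostatin M receptor, showed the widest disagreement between probes. The brightest OSMR probe, named by the accession BC010943, gave 1316 a.u. in OM, 892 a.u. in MB and 2740 a.u. in NM. The second OSMR probe, named by NM_003999, gave 615 a.u. in OM, 1028 a.u. in MB and 446 a.u. in NM. The last, also named by NM_003999, gave 568 a.u. in OM, 903 a.u. in MB and 522 a.u. in NM. By the first probe NM was highest and MB lowest, and by the others MB was highest. The log2 difference of MB over NM was -1.78 ± 0.20 by the first probe, 1.05 ± 0.21 by the second and 0.64 ± 0.21 by the last (software error). That of MB over OM was -0.53, 0.77 and 0.70 in the same order, and that of NM over OM was 1.25, -0.27 and 0.07. On hg17 the first probe (chr5:38922253-38922312, plus strand) lies 46831 bases before the second, and the second and last lie 856 bases apart. The 2-fold calls of OSMR, lower in MB than in NM and higher in NM than in OM, therefore rest on the first probe alone, and OSMR is 2.07-fold higher in MB than in NM by the second. Whether the probes read different transcripts was not tested. The second probe is at hg17 chr5:38969144-38969203 on the plus strand.
OSMR second probe: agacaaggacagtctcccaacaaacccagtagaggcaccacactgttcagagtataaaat

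Over the 8 measured probes of the receptor subunits, 7 were higher in MB than in NM and 6 were higher in MB than in OM, against 54.3% and 58.1% of all measured probes. By their brightest probes 3 of the 4 subunits were higher in MB than in NM, and 2 were higher and 2 lower than in OM. The exceptions were the first OSMR probe in both comparisons and the brightest LIFR probe against OM. At least 2-fold higher signals in MB than in NM were read by 3 of the 8 probes, against 11.6% of all 29546 probes tested.

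**Figure D3:**
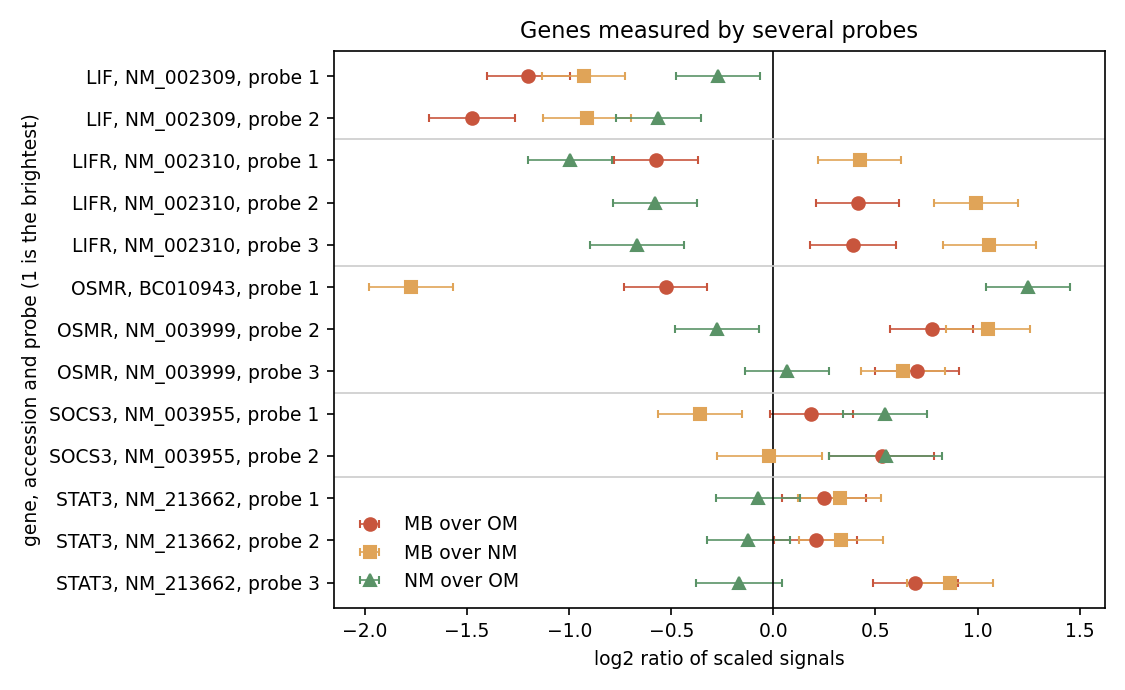
Log2 ratio of scaled signals for every measured probe of the genes with several measured probes, in the 3 comparisons, with the software error as bars and probe 1 as the brightest of its gene. The first OSMR probe lies at -1.78 for MB over NM while the others lie at 1.05 and 0.64, and the LIF and STAT3 probes lie on 1 side of 0 in each comparison.

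SOCS3, the feedback inhibitor that STAT3 induces, gave 750 a.u. in OM, 834 a.u. in MB and 961 a.u. in NM by its brighter probe. The dimmer SOCS3 probe gave 58.7 a.u. in OM, 82.8 a.u. in MB and 75.3 a.u. in NM. NM was highest after scaling and OM lowest by both probes, with NM over OM at 0.55 on the log2 scale for each. MB over OM was 0.53 ± 0.26 by the dimmer probe, over 2 errors, and 0.19 ± 0.20 by the brighter one, within 1 error, where it lay below 0 with 75th percentile scaling and with quantile normalization. Neither SOCS3 probe passed 2-fold in any comparison.

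STAT3, the transcription factor of the pathway, was read by a probe printed in 10 spots with 1225 ± 40.5 a.u. in OM (SD over 8 used spots), 1422 ± 25.5 a.u. in MB (8 spots) and 1019 ± 20.0 a.u. in NM (9 spots). The spots left out, 5 in all, were those that the software marked as outliers. After scaling MB was highest, with log2 differences of 0.25 over OM and 0.33 over NM, larger than the spread over spots (standard error 0.02 and 0.01) but within 2 software errors (0.20 each). A second STAT3 probe that overlaps it gave nearly the same differences, 0.21 over OM and 0.33 over NM. Another STAT3 probe, 8401 bases away, gave 331 a.u. in OM, 524 a.u. in MB and 258 a.u. in NM, or 0.70 ± 0.21 over OM and 0.87 ± 0.21 over NM. One more STAT3 probe, named by the accession BC029783, stayed at background on the 3 arrays. The 3 measured probes therefore shared a direction and differed in size, and none passed 2-fold. The overlapping pair is printed because 40 of its 60 bases, in capitals, are the same, so these probes are not independent readings of STAT3. The first lies at hg17 chr17:37727910-37727969 and the second at chr17:37727930-37727989, both on the minus strand.
STAT3 first probe: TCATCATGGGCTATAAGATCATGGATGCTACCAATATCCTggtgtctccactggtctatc
STAT3 second probe: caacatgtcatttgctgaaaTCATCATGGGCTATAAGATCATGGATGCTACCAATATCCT

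Across the family, between MB and OM 1 gene of 9 tested (IL6) lay past 5-fold lower, against 0.619% of all genes. Past 2-fold lower lay 2 of the 9 (IL6 and LIF), against 3.25%. None was at least 2-fold higher in MB than in OM, against 5.74% of all genes, or 5-fold higher, against 0.939%. Between MB and NM, IL6 was the 1 gene past 5-fold, on the lower side, against 1.37% of all genes. IL6 and OSMR lay past 2-fold lower, against 8.1%, and IL6R past 2-fold higher, against 9.77%. None was 5-fold higher in MB than in NM, against 1.42% of all genes. Between NM and OM, OSMR was the 1 gene at least 2-fold higher, against 4.02% of 13470 genes tested, and none was at least 2-fold lower, against 2.7%. The shares of all genes past 5-fold there were 0.594% higher and 0.148% lower, with no gene of the family. LIFR lay at the edge, 1.996-fold lower in NM than in OM by its brightest probe. The median log2 ratio of the 9 genes came to -0.53 between MB and OM, to -0.36 between MB and NM and to -0.08 between NM and OM, where all genes had 0.14, 0.04 and 0.11. The sign of the family's median rested on the choice of probe. With the median probe fold of each gene it turned to 0.34 between MB and OM and to 0.33 between MB and NM, and with the brightest NM_ probe to 0.19 and 0.33. With the geometric mean over probes it turned to 0.12 between MB and OM and to 0.26 between NM and OM, and stayed below 0, at -0.15, between MB and NM. The MB array enters the first 2 comparisons, so they are not independent of each other. Other scalings placed the median of all genes for MB over OM between -0.05 and 0.11.

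**Figure D4:**
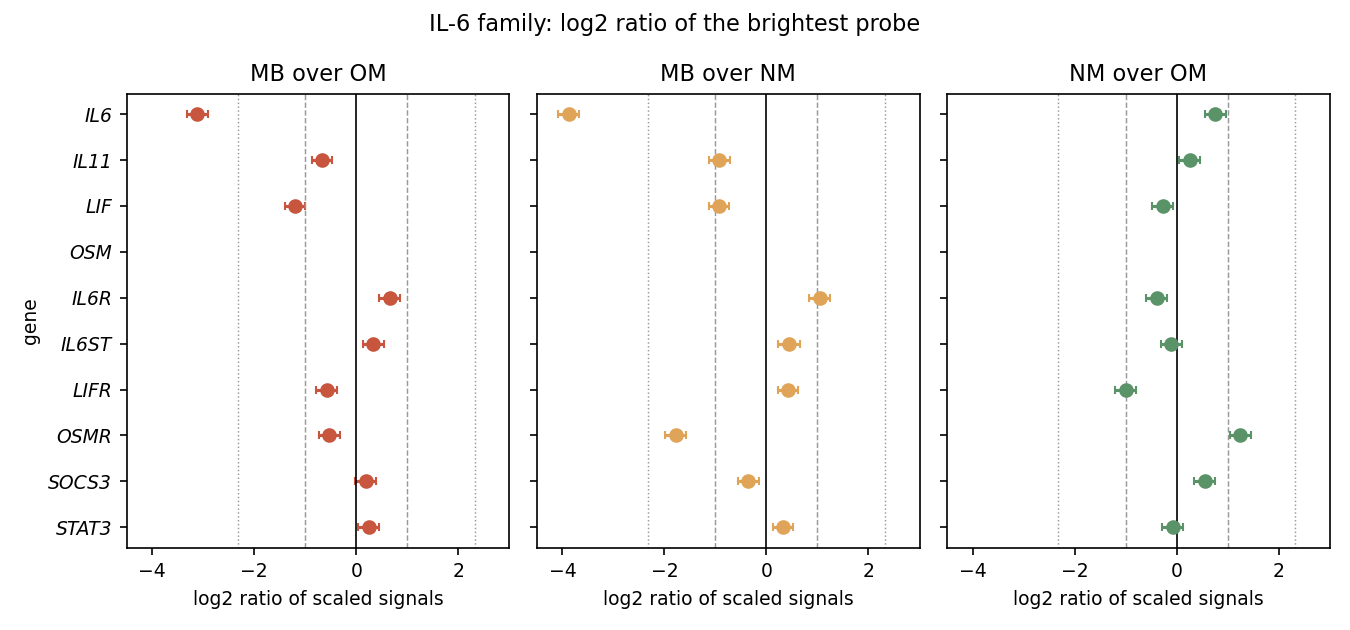
Log2 ratio of scaled signals of the brightest probe of each gene in the 3 comparisons, with the software error as bars, dashed lines at 2-fold and dotted lines at 5-fold. IL6 lies past 5-fold lower in MB in both comparisons, at -3.11 and -3.87, and OSM has no ratio.

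The wider pathway was described from lists of other ligands, receptor subunits, kinases and STATs, inhibitors, and textbook STAT3 targets. Of 7 other ligands of the family 6 were found on the array and 5 were measured. IL27, which encodes a subunit of interleukin 27, gave 2114 a.u. in OM, 1277 a.u. in MB and 3854 a.u. in NM. NM thus exceeded MB 3.36-fold and OM 2.08-fold. With other scalings the log2 difference of IL27 between NM and OM ranged from 0.87 to 1.12.

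Of the other receptor subunits, 3 of 4 were measured and none passed 2-fold in any comparison, with CNTFR at background on all arrays. Of 10 kinases and other STATs, 9 were measured. JAK3, a kinase best known from lymphocytes, gave 317 a.u. in OM, 144 a.u. in MB and 426 a.u. in NM. It was the 1 gene of this list past 2-fold, 2.15-fold lower in MB than in OM and 3.29-fold lower than in NM. With other scalings the number of genes at least 2-fold lower in MB was 1 to 2 in each of these comparisons. STAT5A lay at the edge, 1.85-fold lower in MB than in OM and 1.97-fold lower than in NM. Of all genes, 3.25% were at least 2-fold lower in MB than in OM and 8.1% than in NM. The JAK3 reading is from the brightest of 3 probes, which is not named by an NM_ accession, and the others are not reported here. The other kinases of this list, JAK1, JAK2 and TYK2, which gp130 uses, did not pass 2-fold. STAT4 was at background on all arrays.

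Inhibitors and phosphatases other than SOCS3 numbered 15, of which 14 were measured and PTPN6 was at background. Their median log2 ratio was 0.49 against OM and 0.48 against NM in MB, where all genes had 0.14 and 0.04. PIAS4, a SUMO ligase that restrains STATs, gave 420 a.u. in OM, 854 a.u. in MB and 353 a.u. in NM, 2.08-fold higher in MB than in OM and 2.17-fold higher than in NM. SOCS4 was 2.00-fold and 2.38-fold higher in MB in the same comparisons, from 107 a.u. in OM, 209 a.u. in MB and 78.8 a.u. in NM. SOCS6 gave 882 a.u. in OM, 1565 a.u. in MB and 588 a.u. in NM, so that MB exceeded NM 2.39-fold. The 2 calls against OM, PIAS4 and SOCS4, became 0 or 1 with other scalings, and the 3 against NM became 1 to 3. Of all genes, 5.74% were at least 2-fold higher in MB than in OM and 9.77% than in NM.

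Of 28 STAT3 targets, 24 were well above background on at least 1 array. Against OM, 5 were at least 2-fold lower in MB and none was higher, against 3.25% of all genes lower and 5.74% higher, with a median log2 ratio of 0.03 over 24 genes. Against NM, 7 were at least 2-fold lower in MB and 3 were higher, against 8.1% of all genes lower and 9.77% higher. The median there was -0.51 over 23 genes. All genes had medians of 0.14 against OM and 0.04 against NM. CEBPD, a transcription factor of the acute phase, gave 50477 a.u. in OM, 17129 a.u. in MB and 97482 a.u. in NM, 2.88-fold and 6.34-fold lower in MB. ICAM1, an adhesion molecule, gave 48207 a.u. in OM, 12562 a.u. in MB and 91858 a.u. in NM, 3.75-fold and 8.15-fold lower in MB. Like IL6, both were lowest in MB and highest in NM.
The other targets at least 2-fold lower in MB than in OM were SERPINA3 and SAA1, which encode acute-phase proteins, and the kinase gene PIM1. SERPINA3 was 2.36-fold and PIM1 2.24-fold lower in MB than in OM. SAA1 was 5.28-fold lower, with 435 a.u. in OM, 80.5 a.u. in MB and 120 a.u. in NM, but its reading is uncertain because SAA2 is nearly identical. Against NM, IRF1 was 3.91-fold, SERPINA3 3.62-fold, LCN2 2.54-fold, PIM1 2.26-fold and CEBPB 2.19-fold lower in MB. FOS was 2.64-fold and CCND1 2.14-fold higher in MB than in NM. Between NM and OM, where 4.02% of all genes were at least 2-fold higher and 2.7% lower, LCN2, IRF1, CEBPD and ICAM1 were 2.93-fold, 2.77-fold, 2.20-fold and 2.17-fold higher in NM, and SAA1 and FOS were 3.18-fold and 2.63-fold lower. With other scalings the 4 targets higher in NM became 2 to 4. The list thus held genes past 2-fold in both directions. These genes have other regulators too, and no target was examined at the protein level here.

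**Figure D5:**
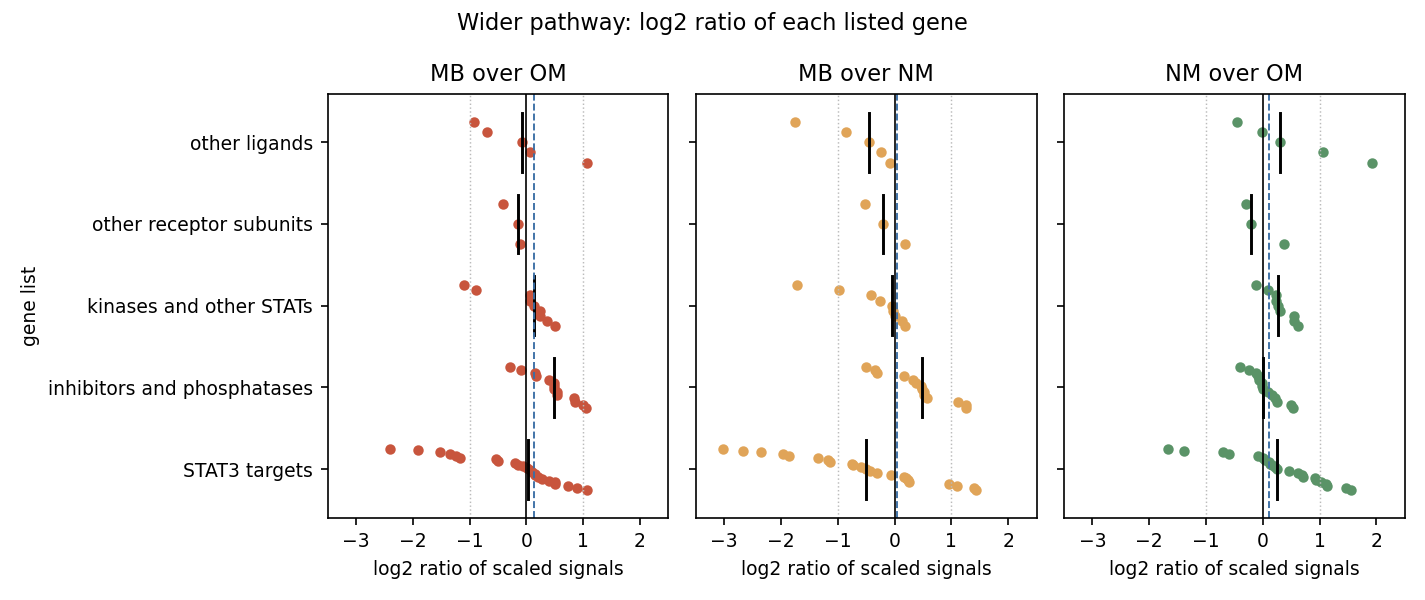
Log2 ratio of scaled signals of each measured gene of 5 pathway lists in the 3 comparisons (points), with the list median (black bars), the median of all genes (blue dashed lines) and 2-fold (dotted lines). Points include genes under 100 a.u. and 1 lower bound (FGA with MB at background), which carry no call. The STAT3 targets spread to both sides, with a median of -0.51 for MB over NM.

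By the pair of log2 ratios MB over OM and NM over OM, the genes closest to IL6 among 11544 were C15orf48, BCL11A, RGS9, MMP9 and LPL, with distances of 0.31, 0.34, 0.43, 0.50 and 0.57. This is a likeness over 3 arrays. MMP9, a gelatinase that degrades matrix, gave 1448 a.u. in OM, 225 a.u. in MB and 2460 a.u. in NM. LPL, which encodes lipoprotein lipase, gave 3082 a.u. in OM, 395 a.u. in MB and 3151 a.u. in NM.

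Since leukocytes, fibroblasts and endothelium also make these cytokines, markers of such cells were read beside them. PTPRC, the pan-leukocyte marker, was at background on all arrays, as were the collagen genes COL1A1 and COL1A2, the endothelial CDH5 and the epithelial EPCAM and CDH1. Of 6 leukocyte markers 5 were well above background, and CD68, a lysosomal gene of macrophages that other cells also express, gave 4716 a.u. in OM, 1727 a.u. in MB and 4944 a.u. in NM. The summed signal of the leukocyte list was 5059 a.u. in OM, 2138 a.u. in MB and 5440 a.u. in NM, most of it from CD68. CD68 was thus low in MB together with the ligands, and its part in the result was not tested. The fibroblast and endothelial lists summed highest in MB, at 9935 and 501 a.u., against 5558 and 229 a.u. in OM and 3228 and 137 a.u. in NM, the former nearly all from PDGFRA and the latter mostly from VWF. Of 5 fibroblast and 4 endothelial markers, 1 of each was well above background on all 3 arrays, and PECAM1 was so in MB alone, at 87.7 a.u. The epithelial list summed to 229 a.u. in OM, 387 a.u. in MB and 139 a.u. in NM, from KRT14. Of 8 melanocyte markers 5 were well above background on all arrays, and MLANA was so in OM and MB alone. SOX10 gave 6254 a.u. in OM, 9382 a.u. in MB and 4887 a.u. in NM, and MITF and S100B were also highest in MB. PMEL was lowest in MB, with 286 a.u. in OM, 209 a.u. in MB and 271 a.u. in NM. DCT changed little, with 66.7 a.u. in OM, 62.8 a.u. in MB and 64.1 a.u. in NM. TYR and TYRP1 were at background on all arrays.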

How the data were processed

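Total RNA was amplified, labelled with Cy3 and hybridised to 60-base probes. The intensity that the authors deposited for each spot is the Feature Extraction (9.5.3.1) processed signal. The background-subtracted signal behind it is the mean signal less a fitted surface (100% of spots within 1 a.u.). In the processed signal, surrogates replaced low values at 7409 spots in OM, 7000 in MB and 9481 in NM. The deposited value table held the same intensities (43376 of 43376 spots per array within 0.1%). No scaling between arrays had been applied.

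Control and outlier spots were left out, the spots of each probe averaged, and the arrays were scaled by the arithmetic mean of GAPDH, ACTB and HSP90AA1 (MB 0.978 and NM 0.877 of OM), each from a probe printed in 10 spots. The methods name HSP90 without the gene. A gene was represented by its probe with the highest mean signal, among 17084 genes with an NM_ accession. A probe was well above background where over 0.5 of its used spots carried that flag, and tested where this held on at least 1 of the 2 arrays. Calls needed 5-fold, as in the methods, or 2-fold, with the brighter array well above background and above 100 a.u. A signal at background on the dimmer array gave a lower bound. No p-value is given, since each population has 1 array. The number of arrays limits the precision, and errors are technical. From 201 probes printed in 10 spots, the SD of a single-spot log2 ratio between MB and OM was 0.06.

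Members and lists were chosen with earlier results of these data known. All members are named, with listed genes past 2-fold or at background and the 5 genes nearest to IL6. Older names were matched through RefSeq tables (GRCh38.p14), and CNTF was not matched. A few listed genes are not reported here. Probe coordinates are those of the files (hg17), which give no exon annotation. The alternatives were 7 scalings, no background subtraction, normexp with an offset of 50 (limma 3.58.1, R 4.3.3), outlier spots kept, other filters and probe rules, and the deposited value table. Python 3.11.15, numpy 2.4.6, pandas 2.3.3 and matplotlib 3.10.9 were used. The comparison was run on simulated data with planted changes past 2-fold on bright probes. That run does not cover dim signals or values near 2-fold.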

Additional observations from a re-analysis of the deposited data

How the results depend on the processing

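The 5-fold counts were the same under all 16 alternatives, with IL6 lower in MB by -3.31 to -3.02 against OM and by -3.99 to -3.72 against NM on the log2 scale. The 2-fold counts between MB and OM also kept their values (2 lower and 0 higher). Of 27 gene comparisons, 20 kept their sign under every alternative, the exceptions being OSMR in all 3, IL6ST in both with NM, and LIFR and SOCS3 between MB and OM. The number of genes at least 2-fold higher in MB than in NM (1, IL6R) became 0 with 75th percentile scaling, quantile normalization, the geometric mean of the housekeeping genes, normexp or no background subtraction, and 2 with the brightest probe that has an NM_ accession (IL6R and OSMR). The number at least 2-fold lower in MB than in NM (2) became 4 with 75th percentile scaling or the geometric mean of the housekeeping genes, which added IL11 and LIF, 3 with quantile normalization, which added IL11, and 1 with the geometric mean over probes, the median probe fold or the brightest NM_ probe. The number at least 2-fold higher in NM than in OM (1) became 0 with those 3 probe rules. The number at least 2-fold lower in NM than in OM (0) became 1, LIFR, with 75th percentile scaling, quantile normalization, spike-in scaling (10 probes), no scaling, HSP90AB1 in place of HSP90AA1 or the median of all genes set to 0. OSMR changed sign: MB over NM was 0.64 with the median probe fold and 1.05 with the brightest NM_ probe, and NM over OM was -0.27 with the latter, since these rules read other probes. The NM_ rule and the median of all genes were chosen after seeing the data. No paired analysis was possible because each population has 1 array. For the same reason no replicate could be left out, and the slide could not be a block since the 3 arrays share 1 slide. Signals as low as that of OSM are limited by background, the lowest signal well above it being 20.9, 19.4 and 29.1 a.u. on the OM, MB and NM arrays.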

Other observations

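Of the 38 spots that read the 10 genes, 3 lay within 2 positions of a spot that was bright on a single array: 1 of the 10 IL6 spots, beside such a spot on the OM array, and 2 of the STAT3 spots, beside such spots on the MB array. No spot of the family was saturated. EBI3 and CTF1, which encode an interleukin 27 subunit and cardiotrophin, were measured under 100 a.u. on each array, and IL31 was at background on all 3. FGA, a fibrinogen chain gene of the acute phase, gave 50.1 a.u. in OM and 89.4 a.u. in NM and was at background in MB, all under 100 a.u. HP, which encodes haptoglobin, gave 45.6 a.u. in OM, 94.0 a.u. in MB and 43.4 a.u. in NM. These liver genes of the acute phase were thus dim here, although HP on all 3 arrays and FGA in OM and NM were well above background. FGB, FGG, CRP and LBP were at background on all arrays.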
